A study of Mus musculus with 6 samples.

Results

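The genes for the GABA and glycine receptors and for the synapse around them were taken as 30 named mouse genes, of 54281 genes in the table. They are 13 subunits of the GABA-A receptor, 3 rho subunits, both subunits of the GABA-B receptor, 5 subunits of the glycine receptor, 2 synthetic enzymes, 1 enzyme of breakdown, 3 transporters and the anchoring protein gephyrin. The list was drawn up by name and does not hold every gene of these families, and the others were not analysed here. It was examined in GLUTag cells, a single established murine enteroendocrine line that secretes GLP-1, which was profiled to learn which receptors it transcribes. The cells had been grown for 48 h in 6-well dishes on Matrigel in DMEM with 1 g/L glucose and 10% FBS, and every library shares this condition. Plate 1, at passage 23, and plate 2, at passage 27, gave 3 libraries each, so that plate and passage cannot be told apart. Nothing says that the libraries of a plate came from separate wells or cultures, so the p-values measure the spread between these libraries, which may be technical. No untreated or control group stands beside these libraries. The libraries were made by a method that reads transcripts from their 3′ ends, which gives about 1 tag per transcript whatever its length. Levels are given as CPM, the count scaled to the library total. Comparing them between genes assumes that the 3′ ends of each gene are read and assigned equally well, which was not tested. Values are the mean ± SD of 6 libraries unless stated otherwise.

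The total was 23994226, 22632351 and 21399987 counts in replicates 1 to 3 of plate 1. It was 28083507, 30914501 and 36488198 in the libraries of plate 2, which are called here by their lowest, middle and highest total. The middle library of plate 2 stood apart from the other two of that plate, with a chi-square per gene of 87.3 and 140 against them, where those differed from each other by 33.3 and pairs within plate 1 by 10.9 to 18.8. The main results that turn on this library are given with and without it. All 8 enteroendocrine markers were above 3 counts in every library, with the proglucagon gene Gcg at 3416 ± 771 CPM. Of 8 neuronal markers 7 were, and the sum of their CPM was 3130 to 3334 on plate 1 and 3096 to 3562 on plate 2, although Rbfox3, which marks mature neurones, was at 0.328 ± 0.144 CPM. Other cell types had 2 of 6 markers for glia, 1 of 4 for islet beta cells, 3 of 6 for enterocytes, 1 of 6 for fibroblasts and 2 of 6 for leukocytes above 3 counts, and Sox10, Ins1 and Ins2 were at 0 in every library.

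GABA and glycine are the main inhibitory transmitters of the central nervous system. GABA-A, rho and glycine receptors are chloride channels built from subunits around a pore, a structure they share with the nicotinic receptors, whereas the GABA-B receptor is a G protein-coupled dimer that lowers cAMP and opens potassium channels. GABA is made from glutamate by glutamate decarboxylase, loaded into vesicles by the transporter that also carries glycine, and broken down by GABA transaminase. In the pancreatic islet GABA is made by beta cells, and in GLUTag cells both transmitters have been described to depolarise the membrane and to raise GLP-1 secretion.

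Each subunit of these channels carries the Cys-loop, a pair of cysteines that form a disulphide bridge in the extracellular domain and give the receptor superfamily its name. In the annotated coding sequences, a segment with cysteines 13 residues apart, a phenylalanine or tyrosine followed by proline, and an aspartate between them was found in 21 of 21 listed channel subunits. It is shown for the 9 subunits that reached 1 CPM in every library, as 45 bases of the coding strand, 5′ to 3′, with the cysteine codons in capitals, so that the repertoire described below can be seen as sequence.
Gabra4: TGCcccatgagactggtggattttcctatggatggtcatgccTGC
Gabra3: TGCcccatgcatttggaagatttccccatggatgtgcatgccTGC
Gabra2: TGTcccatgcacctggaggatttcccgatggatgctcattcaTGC
Gabrb1: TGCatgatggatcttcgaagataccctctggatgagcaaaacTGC
Gabrg3: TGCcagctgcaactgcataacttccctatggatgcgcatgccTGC
Gabre: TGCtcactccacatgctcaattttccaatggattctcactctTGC
Gabrq: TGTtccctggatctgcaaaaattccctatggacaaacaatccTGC
Glrb: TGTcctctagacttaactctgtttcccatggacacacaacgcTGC
Glra3: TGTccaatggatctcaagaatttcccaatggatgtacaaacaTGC
The segments lie in GRCm38 at chr5:71640847-71640891 on the minus strand for Gabra4, chrX:72476245-72476289 on the minus strand for Gabra3, chr5:71012720-71012764 on the minus strand for Gabra2, chr5:72029846-72029890 on the plus strand for Gabrb1, chr7:56982644-56982688 on the minus strand for Gabrg3, chrX:72263762-72263806 on the minus strand for Gabre, chrX:72835112-72835156 on the plus strand for Gabrq, chr3:80861722-80861766 on the minus strand for Glrb and chr8:56062450-56062494 on the plus strand for Glra3. In none of these was the segment split by an intron. Gabra2 and Gabra3 shared 36 of 45 bases (80.0%), and each shared 35 with Gabra4. Glrb was least like Gabrb1, with 20 of 45 bases (44.4%), and shared 26 with Glra3. Between these segments, the alpha subunits that were read most often were therefore told apart by 9 or 10 bases, although the tags themselves come from the 3′ end of the transcripts.

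GLUTag cells transcribed a part of this list at moderate levels. More than 3 counts, the limit that a count of 0 allows, were found in every library for 19 of 30 genes (63.3%), beside 28.1% of all genes in the table. Here and below, fewer cells with a transcript and less RNA per cell cannot be told apart. Another 8 genes had counts but were at 3 or fewer in at least 1 library, and the remaining 3 had no count in any library. At least 1 CPM was reached in every library by 15 genes, and a mean of 10 CPM by 8. The median of the mean levels was 8.56 CPM over the 19 detected genes and 13.8 CPM over the 15271 genes of the table detected by the same rule. By role, detection was 9 of 13 for GABA-A subunits, 0 of 3 for rho subunits, 2 of 2 for GABA-B subunits, 3 of 5 for glycine receptor subunits, 2 of 2 for the synthetic enzymes and 1 of 3 for the transporters, and gephyrin and GABA transaminase were detected.

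**Figure D1:**
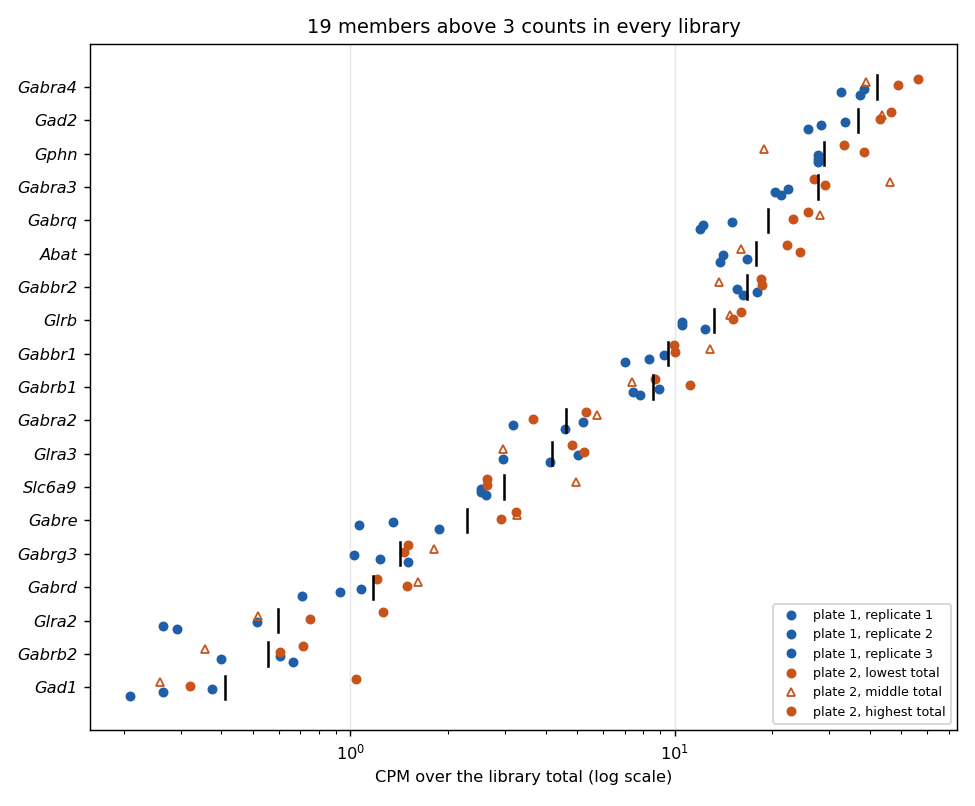
Level of the 19 genes found above 3 counts in every library, in CPM on a log axis, with 1 point per library and a bar at the mean of 6 libraries. Gabra4 and Gad2 lie at the top with means of 42.04 and 36.7 CPM, Gad1 lies at the bottom with 0.411 CPM, and the middle library of plate 2 (open triangle) leaves the other points for Gabra3 and Slc6a9.

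Among the GABA-A subunits, which set the pharmacology and the location of the channel, Gabra4 was at 42.04 ± 8.76 CPM. Its gene (ENSMUSG00000029211) lies at chr5:71569749-71658308 on the minus strand of GRCm38, and its alpha subunit is mainly known from extrasynaptic receptors of the brain. The level of Gabra4 was 37.4, 32.5 and 38.4 CPM in replicates 1 to 3 of plate 1, and 48.8, 38.9 and 56.3 CPM in the libraries of plate 2 from the lowest to the highest total. These values rest on 736 to 2053 counts per library. In CPM the levels of the plates did not overlap, although the middle library of plate 2 was only just above the highest one of plate 1. Among all genes tested between plates, 35.2% were higher in this way on plate 2. After the TMM scaling described below the plates overlapped for Gabra4. Plate 1 was then at 36.7 to 41.2 CPM and the middle library of plate 2 at 36.1 CPM. Gabra3 (ENSMUSG00000031343, chrX:72432681-72656848, minus strand), another alpha subunit, was at 27.7 ± 9.68 CPM. It measured 21.3, 20.4 and 22.3 CPM on plate 1, and 29.2, 46.2 and 26.9 CPM on plate 2. The middle library was the highest by a wide margin, and the mean without it was 24.0 CPM. Gabra2, an alpha subunit common at synapses of the forebrain, was at 4.62 ± 1.01 CPM, with a range of 3.17 to 5.76 CPM and overlapping plates. The counts of Gabra2 were not whole in 4 of 6 libraries, and the reason was not tested.

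The theta subunit gene Gabrq (ENSMUSG00000031344, chrX:72825178-72842602, plus strand), whose product is known from a limited set of brain nuclei, was at 19.4 ± 7.14 CPM. It measured 12.0, 12.2 and 15.1 CPM on plate 1, and 23.1, 28.1 and 25.7 CPM on plate 2. All libraries of plate 2 were higher than all of plate 1. The beta subunit gene Gabrb1 (chr5:71658113-72149037, plus strand) was at 8.56 ± 1.41 CPM, where beta subunits form the GABA binding site together with an alpha subunit. Its values of 7.84, 7.42 and 8.93 CPM on plate 1 overlapped those of 11.1, 7.38 and 8.72 CPM on plate 2. Gabre encodes the epsilon subunit, which can make the channel insensitive to anaesthetics, and was at 2.29 ± 0.98 CPM. It measured 1.88, 1.06 and 1.36 CPM on plate 1, and 2.92, 3.27 and 3.23 CPM on plate 2, again without overlap. Gabrg3, one of the gamma subunits that complete the benzodiazepine site, was at 1.42 ± 0.267 CPM, and Gabrd, the delta subunit of receptors for tonic inhibition, at 1.17 ± 0.343 CPM. Gabrb2 was at 0.558 ± 0.146 CPM on 9 to 26 counts per library.

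The sum over the 16 listed GABA-A and rho subunits was 108.7 ± 23.5 CPM (range 80.3 to 133.9). Gabra4 made up 39.1% ± 5.10 of it, Gabra3 25.3% ± 4.80 and Gabrq 17.3% ± 2.89. Gabrb1 followed with 8.11% ± 1.63 and Gabra2 with 4.32% ± 0.907. These 5 genes were followed by Gabre (2.02%), Gabrg3 (1.33%), Gabrd (1.07%) and Gabrb2 (0.532%), in shares of the listed subunits alone. The share of Gabra4 was lowest in the middle library of plate 2, at 29.0%, and 42.9% where it was highest. In that middle library Gabra3 was above Gabra4, at 46.2 against 38.9 CPM and a share of 34.5%. Gabra4 was above Gabra3 in every other library, and without the middle one their means were 42.67 and 24.0 CPM.

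Several subunits of the channel were at or near the limit of detection. Gabra5, an alpha subunit of the hippocampus, had 3 to 29 counts per library (0.528 ± 0.297 CPM) and overlaps an antisense gene at its 3′ end, and Gabrg1 had 2 to 21 counts (0.293 ± 0.185 CPM). The epithelial pi subunit gene Gabrp had at most 2 counts in a library and was at 0 in 4 of 6. Among the rho subunits, which form the GABA receptors of the retina, Gabrr2 had 0 to 11 counts and Gabrr1 at most 2. No count was found for Gabrr3 or for Gabra6, the alpha subunit of cerebellar granule cells, which allows a level of up to 0.0822 to 0.14 CPM depending on the library. Such a limit covers counting error only.

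Many subunit genes of these receptors lie next to each other in the genome, and 13 of the 21 listed channel genes fell into 5 groups with gaps of at most 1.5 Mb. In the group on chromosome 5 (chr5:70751047-72149037), 4 genes spanned 1398 kb in the order Gabrg1, Gabra2, Gabra4 and Gabrb1. Their levels were 0.293, 4.62, 42.04 and 8.56 CPM in that order, so that neighbours within this group ranged from near the limit to the level of Gabra4. In the group on chromosome X (chrX:72255999-72842602), Gabre, Gabra3 and Gabrq spanned 587 kb and all of them were above 3 counts in every library. The remaining groups were Gabrr2 and Gabrr1 on chromosome 4, Gabrg3 and Gabra5 on chromosome 7, and Gabra6 and Gabrb2 on chromosome 11, of which only Gabrg3 passed 1 CPM in every library. The annotated span of Gabre holds the microRNA genes Mir224 and Mir452, and that of Gabra3 holds Mir105 and Mir767, which were not analysed here.

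**Figure D2:**
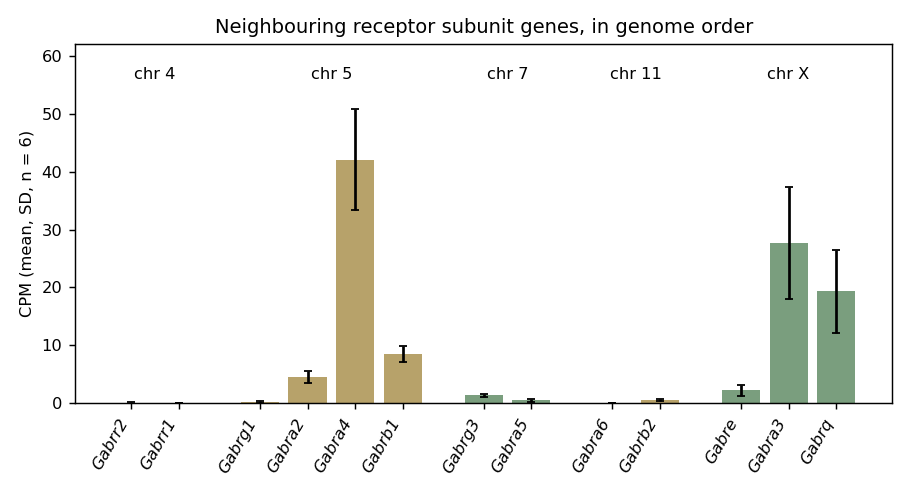
Mean level in CPM (bars, with SD over 6 libraries) of the listed receptor subunit genes that lie in 5 neighbouring groups, in genome order. Gabra4 on chromosome 5 and Gabra3 and Gabrq on chromosome X stand above their neighbours, and the groups on chromosomes 4, 7 and 11 stay below 2 CPM.

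Gabra4 and one of the start sites of Gabrb1 are arranged head to head. The RefSeq start sites on GRCm38.p6 were at position 71658308 of chromosome 5 for Gabra4, on the minus strand, and at 71657921 for Gabrb1, on the plus strand, 387 bp apart, so that the first bases of both genes overlap on opposite strands. RefSeq gives Gabrb1 another start site at 71699932, whose window is not shown, and libraries of 3′ ends do not tell which start was used. The windows around the neighbouring pair of start sites, most of which lies upstream, are shown because genes with start sites so close together were read at 42.04 and 8.56 CPM. They are chr5:71658259-71658558 on the minus strand and chr5:71657671-71657970 on the plus strand, 5′ to 3′ on the strand of each gene, with matches to 5 short motifs on either strand in capitals. The GC box was searched for with the letters GGGCGG. For the box named after its first 4 bases the letters TATAAA were used. The response element for cAMP was searched for as TGACGTCA. An E box was taken as CAGATG, the form that neurogenic factors often bind. The last motif was the box CCAAT, named after its letters. A match to the other strand is printed as its reverse complement.
Gabra4: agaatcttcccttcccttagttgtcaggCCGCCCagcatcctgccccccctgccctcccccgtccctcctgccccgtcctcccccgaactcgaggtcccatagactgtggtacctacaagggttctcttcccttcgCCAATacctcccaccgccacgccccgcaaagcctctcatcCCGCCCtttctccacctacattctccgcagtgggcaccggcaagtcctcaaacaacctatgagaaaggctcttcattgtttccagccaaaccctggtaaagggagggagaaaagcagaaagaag
Gabrb1: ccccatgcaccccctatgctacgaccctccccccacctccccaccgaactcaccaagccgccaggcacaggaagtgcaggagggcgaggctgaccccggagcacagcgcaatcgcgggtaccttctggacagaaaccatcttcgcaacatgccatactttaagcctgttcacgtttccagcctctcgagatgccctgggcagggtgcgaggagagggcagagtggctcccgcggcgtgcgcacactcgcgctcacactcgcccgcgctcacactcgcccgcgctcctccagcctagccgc
The window of Gabra4 held 2 GC boxes and 1 CCAAT, where 35.7% and 37.4% of 32851 windows of this length held at least 1 of each. That of Gabrb1 held none of these letters. The GC content was 58.7% for Gabra4 and 66% for this window of Gabrb1 (50.3% for its other one), beside a median of 52.7% for all windows. No match overlapped another. A match is a description of the letters and no measured binding site, and a window of the list was given for 27 of 30 genes.

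Both subunits of the GABA-B receptor were transcribed. Gabbr2 (chr4:46662305-46991873, minus strand), whose product couples to the G protein and carries the dimer to the surface, was at 16.7 ± 1.93 CPM. Gabbr1 (chr17:37045966-37075067, plus strand), whose product binds GABA, was at 9.56 ± 1.97 CPM. Gabbr2 measured 16.3, 18.0 and 15.5 CPM on plate 1, and 18.5, 13.7 and 18.4 CPM on plate 2. The corresponding levels of Gabbr1 were 7.002, 8.31 and 9.25 CPM, and 10.0, 12.8 and 9.98 CPM. Gabbr2 was therefore higher than Gabbr1 in 6 of 6 libraries, but in the middle library of plate 2, where Gabbr2 was lowest and Gabbr1 highest, the levels nearly met. The difference of log2(CPM + 1) was 0.76 ± 0.36 (exact two-sided sign-flip permutation test, p = 0.0313, adjusted p = 0.0313 over 4 pairs). The ratio of the levels was 1.85 at the median and 1.07 to 2.32 over the libraries, and the mean difference was 0.94 on plate 1, 0.58 on plate 2 and 0.90 without the middle library. This p is the smallest that 6 libraries allow, and with 5 libraries the smallest is 0.0625, so that no pair could pass with a library left out. All 4 pairs were chosen with earlier results of these data known, so their p-values are not independent evidence for a direction.

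Glycine receptors are built from alpha subunits, which bind glycine, and the beta subunit, which ties the channel to gephyrin. The beta subunit gene Glrb (chr3:80843599-80913660, minus strand) was at 13.3 ± 2.41 CPM. It measured 12.4, 10.6 and 10.5 CPM on plate 1, and 15.2, 14.8 and 16.0 CPM on plate 2. All libraries of plate 2 were above those of plate 1 on this scale. Glra3 (chr8:55940460-56130070, plus strand), the alpha subunit known from pain pathways of the spinal cord, was at 4.19 ± 1.03 CPM with a range of 2.94 to 5.23 CPM. Glra2, the alpha subunit of the developing nervous system, was at 0.5995 ± 0.369 CPM on 6 to 46 counts. Glra1, the main alpha subunit of the adult spinal cord, had no count in any library, and Glra4 had at most 2. Glra3 thus made up 87.6% ± 5.43 of the summed alpha subunits, and Glra2 12.0% ± 5.18. Glrb exceeded the sum of Glra1 to Glra4, which was 4.81 ± 1.26 CPM, in 6 of 6 libraries by 1.31 ± 0.32 in log2(CPM + 1) (exact two-sided sign-flip permutation test, p = 0.0313, adjusted p = 0.0313 over 4 pairs). The ratio was 2.72 at the median and 1.89 to 4.2 over the libraries. In the middle library of plate 2 the log2 difference was 1.81, the largest, and the mean without that library was 1.21.

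**Figure D3:**
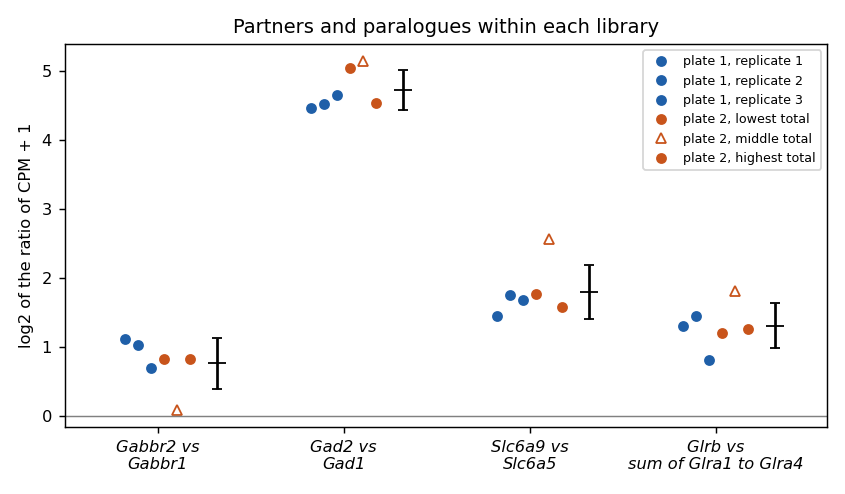
Difference within each library between partners or paralogues, on the log2(CPM + 1) scale, with 1 point per library and the mean with SD beside the points. All 6 points lie above 0 for each of the 4 pairs, and the middle library of plate 2 (open triangle) is the lowest for Gabbr2 against Gabbr1 and the highest for the other pairs.

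Of the enzymes that make GABA, Gad2 was the one that was mainly transcribed. Gad2 (ENSMUSG00000026787, chr2:22622205-22693874, plus strand), whose product sits on synaptic vesicles, was at 36.7 ± 8.71 CPM. It measured 25.8, 28.2 and 33.6 CPM on plate 1, and 42.9, 43.5 and 46.3 CPM on plate 2. Every library of plate 2 was above every library of plate 1. Gad1 (ENSMUSG00000070880, chr2:70553072-70602014, plus strand), which makes most of the GABA of the brain, was at 0.411 ± 0.314 CPM. It measured 0.208, 0.265 and 0.374 CPM on plate 1, and 0.321, 0.259 and 1.04 CPM on plate 2, on 5 to 38 counts per library. The library with the highest total stood above all others, and the mean of Gad1 without it was 0.285 CPM. Gad2 was 115 times as high as Gad1 at the median, with a range of 44.5 to 168 over the libraries. The difference of log2(CPM + 1) was 4.73 ± 0.29 in 6 of 6 libraries (exact two-sided sign-flip permutation test, p = 0.0313, adjusted p = 0.0313 over 4 pairs). Adding 0.1 CPM in place of 1 gave 6.30, and adding 5 CPM gave 2.92. With 620 to 1691 counts for Gad2 and 5 to 38 for Gad1, the direction was nearly given beforehand and the test adds little. An antisense gene overlaps Gad1 on the opposite strand, and whether the counting used the strand is not given in the sources used here.

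The start regions of both decarboxylase genes are shown because their transcripts differed most among the pairs. They are the RefSeq windows chr2:22622077-22622376 for Gad2 and chr2:70561879-70562178 for Gad1 in GRCm38.p6, both on the plus strand, with the same letters in capitals as above.
Gad2: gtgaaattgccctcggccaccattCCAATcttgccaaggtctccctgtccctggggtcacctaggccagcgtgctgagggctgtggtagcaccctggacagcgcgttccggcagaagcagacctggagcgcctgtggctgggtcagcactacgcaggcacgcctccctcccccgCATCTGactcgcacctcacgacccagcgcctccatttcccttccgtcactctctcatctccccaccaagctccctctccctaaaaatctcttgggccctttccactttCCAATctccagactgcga
Gad1: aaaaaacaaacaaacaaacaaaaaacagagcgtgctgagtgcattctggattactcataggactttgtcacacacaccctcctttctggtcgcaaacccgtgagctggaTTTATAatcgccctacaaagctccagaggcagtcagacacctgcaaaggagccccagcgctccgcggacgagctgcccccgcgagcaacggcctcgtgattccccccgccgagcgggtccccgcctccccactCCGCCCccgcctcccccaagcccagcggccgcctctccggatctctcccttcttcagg
The window of Gad2 held 1 E box, here as its reverse complement, and 2 CCAAT. In the window of Gad1 there was 1 GC box and 1 TATA box, each on the other strand. An E box of this form was found in 17.2% of all windows and the TATA box in 13.6%, while the cAMP response element, in 1.79% of all windows, was in neither. Their GC content was 61.3% and 60%.

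GABA transaminase (Abat, chr16:8513429-8621568, plus strand), which breaks GABA down in mitochondria, was at 17.8 ± 4.39 CPM. It measured 13.8, 16.7 and 14.1 CPM on plate 1, and 24.3, 16.0 and 22.2 CPM on plate 2, with an overlap through the middle library. Of the transporters, Slc6a9 (chr4:117834506-117875198, plus strand), which clears glycine from the extracellular space, was at 2.98 ± 0.966 CPM. Its levels were 2.63, 2.52 and 2.52 CPM on plate 1, and 2.64, 4.95 and 2.63 CPM on plate 2. Thus 5 libraries lay within 2.52 to 2.64 CPM and the middle library of plate 2 stood above them, with a mean of 2.59 CPM without it. The 3′ end of Slc6a9 overlaps B4galt2 on the opposite strand, so its level is uncertain. Slc6a5, the glycine transporter of glycinergic neurones, was above 3 counts in 2 of 6 libraries with at most 8 counts. The difference between Slc6a9 and Slc6a5 was 1.80 ± 0.40 in log2(CPM + 1), in the same direction in 6 of 6 libraries (exact two-sided sign-flip permutation test, p = 0.0313, adjusted p = 0.0313 over 4 pairs). In the middle library of plate 2 this difference was 2.57, the largest, and the mean without that library was 1.64. Adding 0.1 CPM here, with all 6 libraries, gave 3.89, and adding 5 CPM gave 0.63. Since Slc6a5 was near the limit of detection, the size of this difference depends on the number added. Its direction was nearly given beforehand, so the test adds little. Slc32a1, which loads GABA and glycine into vesicles, had 1 to 17 counts per library (0.380 ± 0.196 CPM) and was above 3 counts in 5 of 6 libraries.

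Gephyrin (Gphn, chr12:78226379-78684772, plus strand) anchors glycine and GABA-A receptors under the membrane and also takes part in the synthesis of the molybdenum cofactor. It was at 28.9 ± 6.47 CPM. Plate 1 gave 27.7, 27.8 and 27.6 CPM, and plate 2 gave 38.2, 18.9 and 33.2 CPM. The replicates of plate 1 were close together, whereas the middle library of plate 2 was the lowest of all 6 and the mean without it was 30.9 CPM.

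In the order of the mean levels, from Gabra4 down to Gad1, no adjacent pair passed the test after adjustment, which 6 libraries hardly allow. Of the 18 adjacent pairs among the 19 detected genes, 0 passed the exact sign-flip permutation test after adjustment over the pairs, with an adjusted p of at least 0.161, and 3 reached the smallest unadjusted p of 0.0313. These 3 were Gabra3 above Gabrq (0.52 ± 0.28 in log2(CPM + 1)), Glrb above Gabbr1 (0.43 ± 0.24) and Gabrb1 above Gabra2 (0.78 ± 0.37). The order was taken from the same values that were tested. The direction within a pair was therefore nearly given beforehand, and these p-values are no evidence for the order. With 6 libraries, 12 of the 18 pairs would have had to reach that p for any to pass. The test can thus neither establish the order nor show that neighbours are alike. For near neighbours such as Gphn and Gabra3 (0.09 ± 0.65) or Gabrq and Abat (0.06 ± 0.41), the mean difference was smaller than its SD. Without the middle library of plate 2 these differences were 0.35 and -0.08.

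The spread between libraries in CPM, which includes the difference between plates, was set beside the spread that counting alone would give. The coefficient of variation was 24.6% at the median of the 19 genes (11.6% for Gabbr2 to 76.3% for Gad1), beside 22.6% over all genes detected by the same rule. For Gabra4 it was 20.8% where counting alone gives 2.97%. For Gabrb2 it was 26.2% and counting alone gives 26%, so that a spread beyond counting was not detectable at this depth. The middle library of plate 2 was the highest for 8 of the 19 genes and the lowest for 5, where it was the highest for 33.8% and the lowest for 19.7% of the 15271 genes detected by the same rule. It was the highest for Gabbr1, Gabra2, Gabra3, Gabrd, Gabre, Gabrg3, Gabrq and Slc6a9, and the lowest for Gabbr2, Gabrb1, Gabrb2, Glra3 and Gphn.

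**Figure D4:**
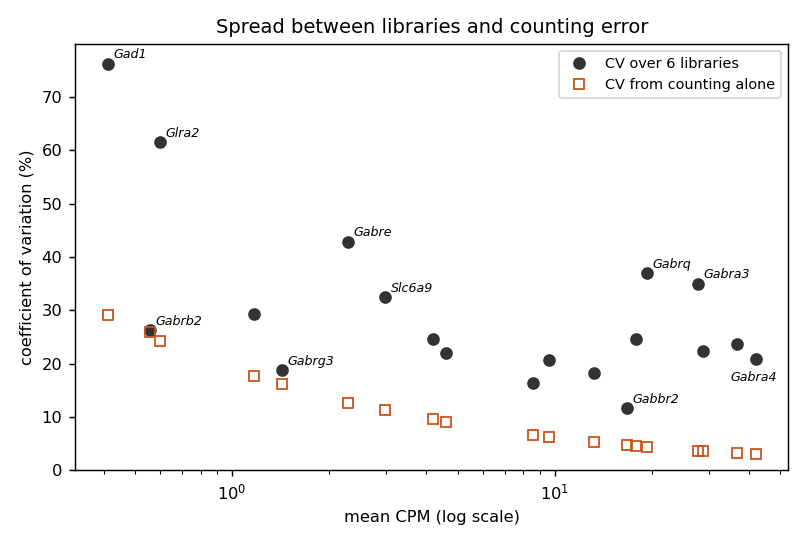
Coefficient of variation over 6 libraries (filled points) and the one that counting alone gives (open squares), in percent, against the mean CPM on a log axis for the 19 detected genes. The spread of Gabrb2 sits on its counting error, and that of Gad1 at 76.3% is the largest.

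The plates, which also differ in passage, are the only division of the libraries that the labels give. They were compared to see whether the repertoire moved between them. No gene of the list passed the threshold. With edgeR's quasi-likelihood test and Benjamini-Hochberg adjustment over 15669 genes, 29 genes (0.185%) were called at an adjusted p under 0.05, and of the 20 listed genes that were tested 0 were. At an unadjusted p under 0.05 there were 3 of 20, a share close to that of all genes tested (16.1%). Gabrq was higher on plate 2 by 0.71 in log2 (SE 0.15, edgeR adjusted p = 0.102), with a TMM-scaled level of 14.3 CPM on plate 1 and 23.4 CPM on plate 2. Gabre was higher by 0.87 (SE 0.28, edgeR adjusted p = 0.187) and Gad2 by 0.34 (SE 0.13, edgeR adjusted p = 0.26). The next was Gabra3 with 0.41 (SE 0.21, edgeR adjusted p = 0.381), which was 0.09 (SE 0.12) without the middle library of plate 2. DESeq2 called Gabrq (adjusted p = 0.0136) beside 3.70% of all genes, and limma-voom called none of the list (0.123 for Gabrq) beside 0.0638%. Without the middle library of plate 2, edgeR called 1911 genes (12.0%) and Gabrq among them (0.60, adjusted p = 0.0117), whereas without replicate 1, 2 or 3 of plate 1 it called 0, 2 and 6 genes and without the lowest or the highest library of plate 2 it called 0 and 9. The adjusted p of Gabrq ranged from 0.0103 to 0.404 over all alternatives.

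**Figure D5:**
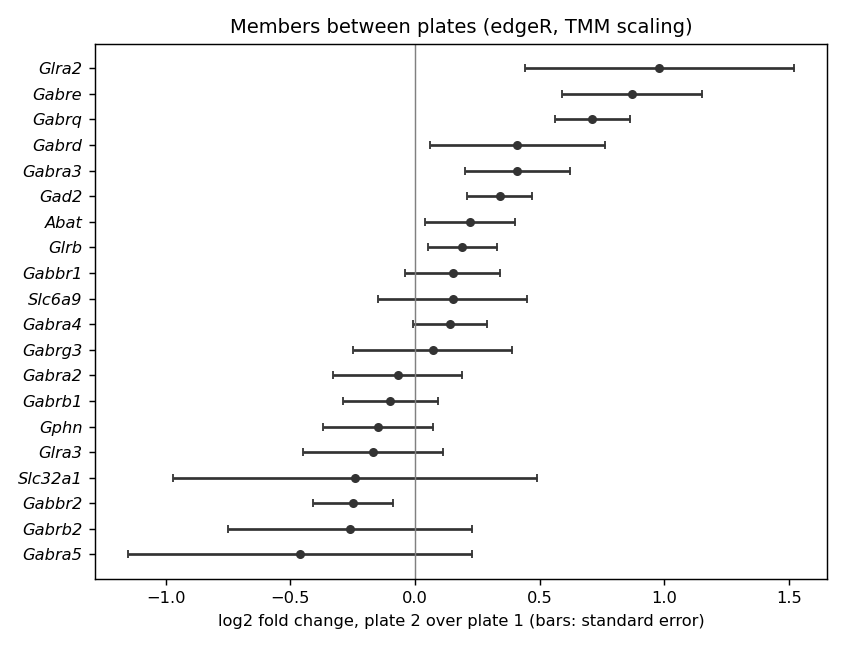
Change between plates in log2, plate 2 over plate 1, with its standard error, for the 20 listed genes tested by edgeR with TMM scaling. Gabrq at 0.71 and Gabre at 0.87 lie farthest from 0 relative to their error, and none passed the threshold.

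The levels in CPM gave a stronger division between the plates than the TMM-scaled ones. In CPM over the total, all libraries of plate 2 were above all of plate 1 for 10 of 20 genes, beside 35.2% of all genes tested, and below for 0 of 20, beside 4.00%. After TMM scaling, which corrects for the composition of a library, 5 of 20 remained above (Gabra3, Gabre, Gabrq, Gad2 and Glrb), beside 12.8% of all genes, and 0 were below, beside 12.0%. Gabbr1, Gabra4, Gabrd, Glra2 and Slc6a9 were above in CPM only and overlapped after this scaling. The median change was 0.15 over the listed genes and 0.03 over all genes with TMM, and 0.06 and 0.01 without the middle library of plate 2. With the total count alone these medians were 0.41 and 0.30, and Gabre, Gabrq and Gad2 passed the threshold of edgeR (adjusted p = 0.0442, 0.0273 and 0.036), beside 9.46% of all genes, of which 1411 of 1482 were higher on plate 2. The share of lower genes among those called was 93.1% with TMM, 4.79% with the total count and 73.4% with DESeq2. The summed enteroendocrine markers were also higher in CPM on plate 2 (6056 to 6958) than on plate 1 (5062 to 5943). So were those listed for glia (78.6 to 87.6 against 59.4 to 67.9), of which nearly all was Mbp (71.8 CPM), for islet beta cells (146.1 to 183.4 against 126.4 to 131), of which nearly all was Mafa (147.8 CPM), and for leukocytes (2.26 to 3.74 against 1.59 to 1.83), whereas those of neurones, enterocytes and fibroblasts overlapped. The part of these markers in the changes was not tested.

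Other genes of the pathway were taken from a list of 67, of which 56 were above 3 counts in every library, beside 28.1% of all genes. Of the 67, 0 of the 57 tested were called between plates by edgeR (8 at an unadjusted p under 0.05, where 16.1% of all genes were, with a median change of -0.04). Of the carriers for GABA, taurine and betaine 4 of 5 were detected, led by the taurine transporter Slc6a6 (75.1 ± 13.6 CPM), the creatine transporter Slc6a8 (14.1 CPM) and the GABA transporter Slc6a13 (2.00 CPM). For the supply of glutamine and glutamate 5 of 6 were detected, among them the amino acid carriers Slc38a2 (165.7 ± 18.7 CPM) and Slc38a1 (101 CPM). All 5 genes for the breakdown of GABA or for its synthesis from polyamines were detected, among them ornithine decarboxylase Odc1 (179.5 ± 28.2 CPM), Aldh9a1 (35.3 CPM) and the monoamine oxidase Maob (25.8 CPM). Of the genes that supply or break down glycine 9 of 10 were detected, with Psat1 (185.7 ± 11.2 CPM) and Shmt2 (51.5 CPM) of the serine route and Gatm (80.0 ± 30.3 CPM), which uses glycine to make creatine.

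Of the genes for traffic and anchoring of GABA-A receptors 18 of 19 were detected. The highest were Hap1 (320.5 ± 62.6 CPM), which helps to return receptors to the surface, Gabarapl2 (228.2 ± 11.2 CPM), a relative of the GABA-A receptor-associated protein, and Ubqln1 (135.9 CPM), a ubiquitin-like protein. Of the enzymes of the molybdenum cofactor, to which gephyrin's other role belongs, 4 of 6 were, with Mocs2 (99.9 ± 6.85 CPM), the sulphite oxidase Suox (13.9 CPM) and Xdh (9.04 CPM). Of the partners and effectors of the GABA-B receptor 9 of 14 were, with the G protein subunits Gnai2 (632.3 ± 69.6 CPM) and Gnb1 (226.3 ± 29.4 CPM) and the regulator Rgs4 (107.8 ± 8.08 CPM) at the top. Of the auxiliary subunit genes Kctd12 was at 48.1 ± 9.93 CPM, Kctd12b had 0 to 24 counts per library, and Kctd8 and Kctd16 had no count in any library. The listed potassium channel genes were lower, with Kcnj9 at 6.83 ± 1.88 CPM and Kcnj6 at 1.23 ± 0.321 CPM. Kcnj3 (2 to 6 counts per library) and Kcnj5 (0 to 5 counts) were not above 3 counts in every library. Both genes of the endogenous benzodiazepine-site ligand were detected, Dbi, which encodes the ligand, at 594.4 ± 92.6 CPM and its mitochondrial receptor Tspo at 51.7 ± 11.9 CPM.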

How the data were processed

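The 6 libraries were made with a 3′ mRNA kit from GLUTag cells. The authors trimmed the reads (Trim Galore 0.6.4), used Salmon 1.5.1 to assign them to GRCm38 transcripts, with no correction for length, and added up the transcripts of a gene. What they deposited are expected counts, which need not be whole (7.08% to 8.89% of the values per library were not), with no normalization. Columns of plate 1 were matched to replicates 1 to 3. Those of plate 2 carry numbers that do not identify a replicate, so their totals give them their names, and 0 columns were left unused.

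CPM were computed over the total of each library. Each library gave 1 difference of log2(CPM + 1) for a pair of genes, with a pseudocount of 1 CPM, and the signs of the 6 differences were flipped in every combination (exact permutation test, two-sided), with Benjamini-Hochberg adjustment over 18 adjacent pairs or 4 pairs of partners. Plates were compared on rounded counts by the robust quasi-likelihood test of edgeR 4.0.16, after filterByExpr and with TMM scaling. DESeq2 1.42.0, limma-voom 3.58.1, other filters and scalings and the omission of each library were the alternatives. On simulated data with 200 of 15669 genes changed 4-fold, in 3 draws, edgeR recovered at least 95.5% with at most 5.77% false calls, limma-voom 95.5% with 4.95% and DESeq2 94% with 11.1%. The simulation gave every gene a dispersion of 0.05 and made no library stand apart. The largest change of a listed gene with edgeR was 0.98 in log2 (Glra2), less than 4-fold. These rates therefore do not tell how often changes of the size seen between the plates would be found. Positions are from GENCODE M21 on GRCm38, where 54107 of 54281 identifiers were found, although the authors used M23. Coding segments were read from the M21 transcripts and start regions from RefSeq (GRCm38.p6).

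The genes named are the 30 of the list, the 3 highest of each role among 67 other pathway genes, all found, and any past the threshold between plates. Of these, 1 pathway gene is not reported here. The list, the pathway genes and the pairs were chosen with earlier results of these data known. Kctd8, Kctd12, Kctd12b, Kctd16, Kcnj3, Kcnj5, Kcnj6 and Kcnj9 were named after their values were seen. The count columns number the replicates 1 to 3 on each plate, and nothing says that a number pairs them. R 4.3.3, Python 3.11.15, numpy 2.4.6, pandas 2.3.3, scipy 1.17.1, statsmodels 0.14.6 and matplotlib 3.10.9 were used.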

Additional observations from a re-analysis of the deposited data

Results flagged for a closer look

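In 22 values examined for a library far from the others, 3 stood out, where chance gives about 1 in 20. Gabra3 was at 46.2 CPM in the middle library of plate 2 and at 20.4 to 29.2 CPM in the others. Slc6a9 was at 4.95 CPM in the same library and at 2.52 to 2.64 CPM in the others. Gad1 was at 1.04 CPM in the library of plate 2 with the highest total and at 0.208 to 0.374 CPM in the others. The gap to the nearest library took up 0.659, 0.952 and 0.801 of the whole range. Without the library concerned the means were 24.0, 2.59 and 0.285 CPM, and the cause was not tested.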

How the results depend on the processing

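The levels of the 19 detected genes moved by less than their SD under TMM scaling, DESeq2 size factors and a total without mitochondrial genes (57 values, 0 of which moved further). The number of listed genes above 3 counts in every library was 19 to 20 with a library left out, and 15, 16 and 27 with a minimum of 1 CPM, of 10 counts, or of any count in any library. Pseudocounts of 0.1 and 5 CPM left the 4 pairs of partners and the 18 adjacent pairs with the same counts, which says nothing about stability, since a pseudocount cannot change the sign of a difference and 12 adjacent pairs would have to reach the smallest p for any to pass. Between plates, DESeq2 called 579 genes and 1 of the list, limma-voom 10 and 0, edgeR with the total count alone 1482 and 3, and edgeR with no filter beyond a count in any library 545 and 1. Gabrq was the single call with DESeq2 and without the filter. Leaving out a library gave 0 to 1911 genes and 0 to 1 of the list, with 1911 and Gabrq without the middle library of plate 2, and the cause was not tested. The titles number the libraries 1 to 6, whereas the count columns number them 1 to 3 on each plate. With that number as a replicate block, an alternative chosen after seeing the data, 5 genes were called and 0 of the list. However, libraries of the same number share only a number. Their deviations from the plate means correlated by 0.02, 0.03 and 0.09 over 15669 genes, and those of different numbers by -0.06 to 0.03. Levels under about 1 CPM rest on few counts and limit what can be said of Gad1, Glra2, Gabrb2, Gabra5, Gabrg1 and Slc32a1.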
